A study of Homo sapiens with 9 samples.

Results

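The machinery of DNA replication was followed as a set of 50 genes, chosen as rows of the expression table whose gene identifier maps to a fixed list of symbols. The list holds origin licensing, helicase activation, the replicative polymerases, the sliding clamp with its loader and the single-strand binding protein RPA, the supply of deoxynucleotides, and the protection of the fork. All 50 were among the 15354 rows, and all 50 passed the filter of at least 1 CPM (reads of a gene scaled to a common library total) in at least 3 of 9 libraries, as 13893 genes did. RNA had been sequenced from HCT116, an established human colorectal cancer line, 3 biological replicates per group by the study's methods. The groups received, by reverse transfection at 25 nM, a commercial negative control siRNA, siRNA A or siRNA B, the last a pair designed against the long non-coding RNA SNHG5. Every group was the same parental line with no engineered allele, and the methods give 1 harvest time for all groups. The series asked which transcripts change when SNHG5 is depleted. Each siRNA is a single sequence in a single cell line, so an effect of the sequence and an effect of the target cannot be told apart within 1 group.

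Before S phase, the origin recognition complex (ORC), CDC6 and CDT1 load the MCM2-7 helicase on DNA. At the start of S phase the kinase CDC7 with DBF4, together with CDC45, the GINS complex and MCM10, turns the loaded MCM ring into a moving helicase. Polymerase alpha with primase then starts each strand, polymerases delta and epsilon extend it on the PCNA clamp, and ribonucleotide reductase, thymidylate synthase and thymidine kinase feed the reaction. Most of these genes are transcribed in late G1 under the control of E2F factors, and they are known to be abundant in cycling cells such as a colorectal cancer line.

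The libraries held 15566530 to 23277549 reads, and the fewest reads behind any member in any library were 156, for CDC45. Values below are CPM divided by a library's TMM factor (trimmed mean of M values), which ran from 1.104 to 1.192 in control, from 0.850 to 0.914 in siRNA A and from 0.948 to 1.04 in siRNA B. The targeted gene went against the labels: SNHG5 stood at 31.3, 22.1 and 25.9 CPM in control, yet at 71.5, 58.8 and 67.3 CPM where the label is siRNA A and at 46.2, 50.3 and 46.1 CPM where it is siRNA B. Every direction below is therefore one between libraries with those labels, whether or not the word "labelled" is repeated, and the cause of the SNHG5 levels was not tested. Of 4 epithelial markers (EPCAM, KRT8, KRT18, CDH1) all were present, with a summed level of 1299 to 1418 CPM in control, 2236 to 2834 CPM in siRNA A and 1800 to 1839 CPM in siRNA B. Of 5 fibroblast markers 1 passed the filter, COL1A1. Their sum was 15.3 to 17.5 CPM in control, 10.8 to 13.9 CPM in siRNA A and 8.72 to 9.94 CPM in siRNA B, with LUM at 0. Of 4 leukocyte markers only LYZ had a row, at no more than 0.145 CPM. Of 3 endothelial markers CDH5 and VWF had no row, and PECAM1 was matched to no gene identifier, so its row could not be looked up. The part of these marker levels in the results was not tested. In bulk RNA, fewer cells of a kind (such as cells in S phase) and less RNA per cell cannot be told apart.

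Differences are log2 fold changes on the scale log2(scaled CPM + 1), which understates changes of low genes, tested with limma over all 13893 genes. A gene is called higher or lower when its Benjamini-Hochberg adjusted p was under 0.05, and every adjusted p below is limma's unless another tool is named. Both comparisons with control use the same 3 control libraries, so they are not independent of each other. The scaling matters for every direction given. With library totals alone, the median of all genes tested moved by −0.32 for siRNA A, by −0.19 for siRNA B and by −0.13 for siRNA A against siRNA B.

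In the libraries labelled siRNA A, 14 members were lower than in control, led by CDC45, GINS2 and POLD2, and 8 were higher, led by MCM3 and ORC2. Together 22 of 50 (44%) were called, where 51.4% of all genes tested were (23.9% higher and 27.6% lower). The share of members lower, 28.0%, was thus near that of all genes, and the share higher, 16.0%, was below it. The median log2 fold change was −0.18 over the members and −0.02 over all genes tested. In 32 members (64.0%) the libraries labelled siRNA A did not overlap with control, against 59.5% of all genes. Under library totals alone no member was higher and 34 were lower, beside 9.05% of all genes higher and 47.0% lower, so all 8 calls higher were lost with that scaling. Without siRNA A replicate 2, which had the fewest reads of all libraries, 9 members were lower and 8 higher. The 8 calls higher fell to 5 without siRNA A replicate 1, to 4 without siRNA A replicate 3 and to 3 without control replicate 3.

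In the libraries labelled siRNA B, 9 members were lower than in control, led by RPA1, POLD2 and GINS3, and 7 were higher, led by RFC5 and PRIM1. That is 32.0% of the members, beside 34.0% of all genes tested (15.6% higher and 18.3% lower), a share near the background. The median log2 fold change was 0.00 to 2 decimals over the members as over all genes tested. Without overlap between the groups were 25 members (50.0%), against 47.6% of all genes. All 9 calls lower were kept under each of the 15 alternative settings. Under library totals alone no member was higher and 17 were lower, beside 6.90% of all genes higher and 29.7% lower. The 7 calls higher came to 4 without control replicate 1, control replicate 2 or siRNA B replicate 1, and to 3 without control replicate 3.

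The direct comparison asks where the siRNAs differ. In siRNA A against siRNA B, 6 members were higher and 11 were lower, which is 34.0%, beside 37.1% of all genes tested (17.6% higher and 19.5% lower). The groups did not overlap in 23 members (46.0%), against 47.6% of all genes. The largest differences were in RPA1 (1.29), CDC45 (−0.86), RFC4 (−0.82), TK1 (−0.74) and GINS3 (0.72), all on the log2 scale. Library totals alone gave 2 members higher and 16 lower, beside 10.2% and 27.0% of all genes. RPA1 and GINS3 stayed higher and MCM2, MCM5, MCM6 and RFC3 were no longer called. The 11 calls lower came to 6 without siRNA A replicate 2, siRNA B replicate 1 or siRNA B replicate 3.

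**Figure D1:**
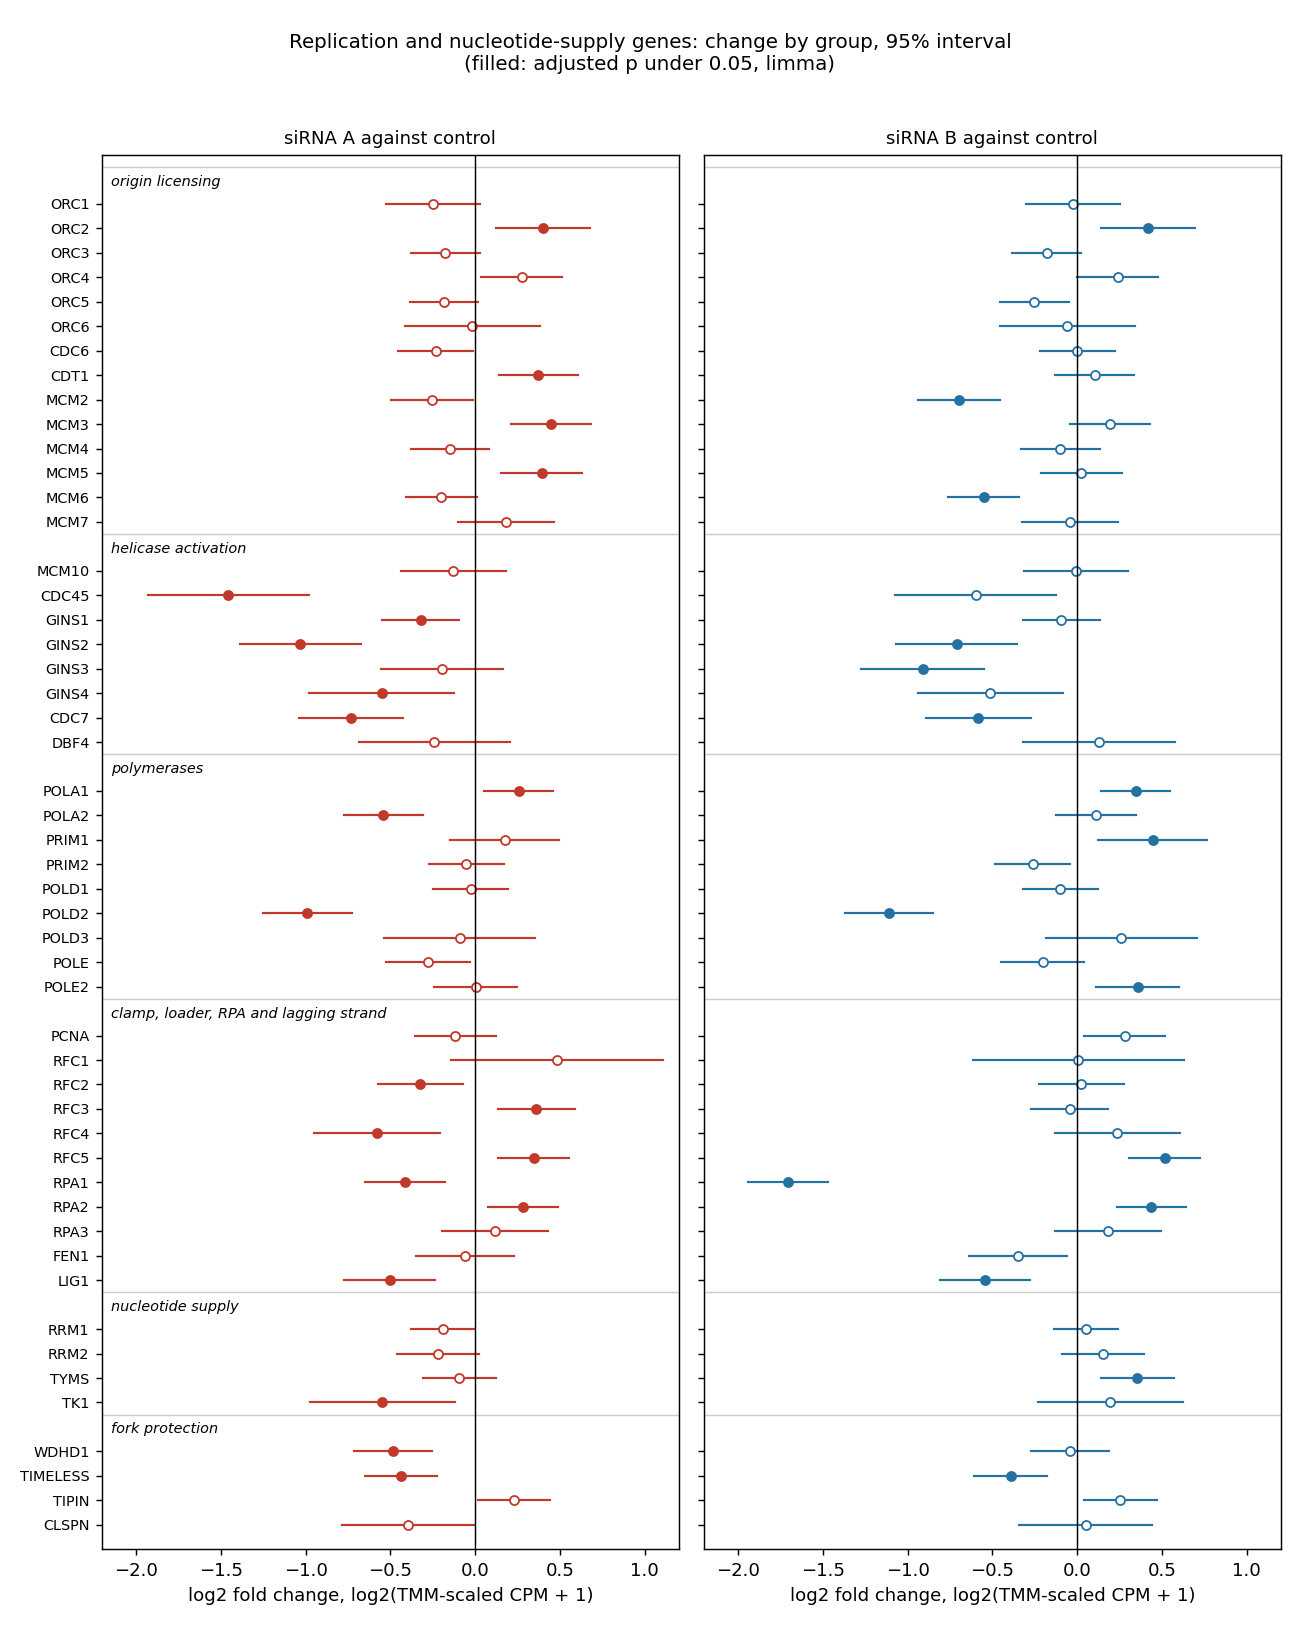
Log2 fold change of each of the 50 members against control (x axis, log2 of TMM-scaled CPM + 1) with its 95% interval, siRNA A on the left and siRNA B on the right, grouped by step of replication. Filled points are called; CDC45 at −1.46 is the lowest value for siRNA A and RPA1 at −1.71 the lowest for siRNA B.

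**Figure D2:**
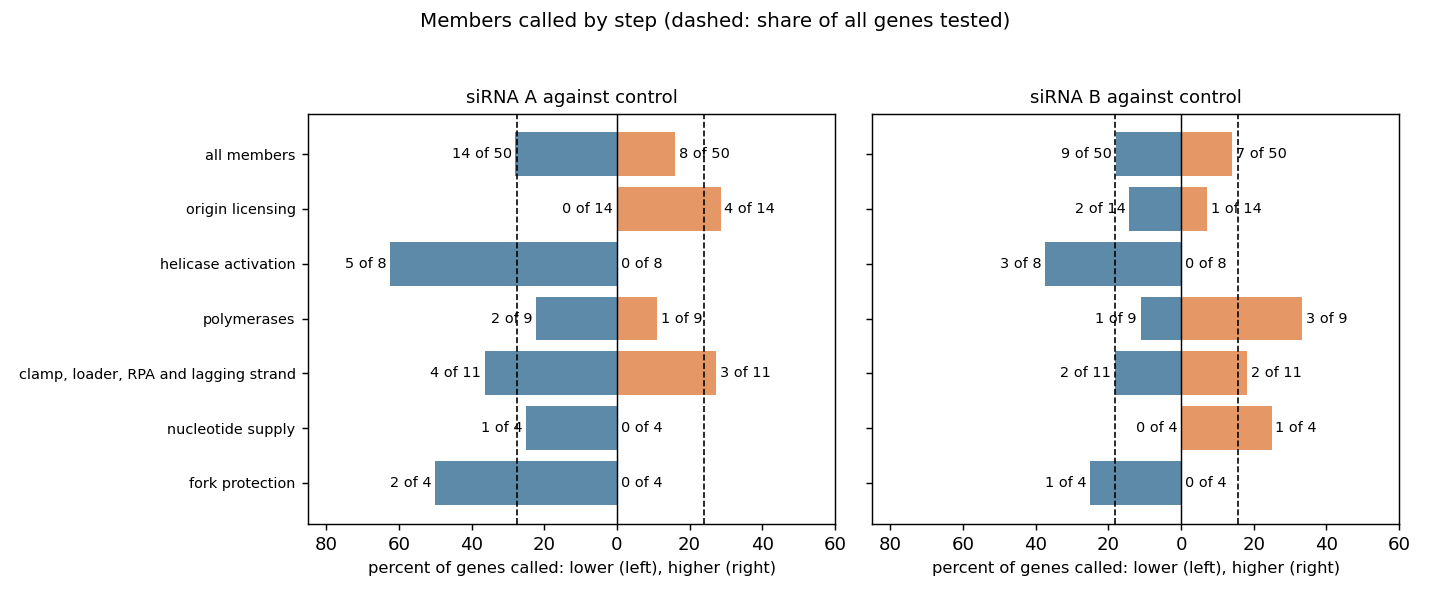
Percent of members called lower (left) and higher (right) in each step, with the number called beside each bar and a dashed line at the share of all genes tested. Helicase activation has 5 of 8 lower for siRNA A and 3 of 8 for siRNA B with none higher. Origin licensing has none lower for siRNA A with the TMM scaling plotted. Under library totals alone, not plotted, 7 of 14 are lower there, beside 47.0% of all genes tested.

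Origin licensing was measured by 14 members. Against control, 4 were higher (28.6%) and none lower in siRNA A, where 23.9% and 27.6% of all genes tested were. In siRNA B 1 was higher and 2 were lower (7.14% and 14.3%), where 15.6% and 18.3% of all genes were. Under library totals alone none was higher and 7 were lower in siRNA A (ORC1, ORC3, ORC5, CDC6, MCM2, MCM4 and MCM6, from −0.62 to −0.51). In siRNA B none was then higher and 5 were lower (ORC3, ORC5, MCM2, MCM4 and MCM6). With that scaling 9.05% of all genes were higher and 47.0% lower in siRNA A, and 6.90% and 29.7% in siRNA B. MCM3, a subunit of the MCM2-7 ring, stood at 285, 278 and 285 CPM in control, 373, 395 and 388 CPM in siRNA A and 345, 276 and 356 CPM in siRNA B. All siRNA A libraries lay above control, and siRNA B overlapped with it. On the log2 scale the difference was 0.45 for siRNA A (SE 0.11, adjusted p = 0.00495) and 0.20 for siRNA B (SE 0.11, adjusted p = 0.187). For siRNA B it came to an adjusted p of 0.0271 without siRNA B replicate 2, at 0.31. MCM5, another ring subunit, was higher by 0.39 in siRNA A (adjusted p = 0.0101), as was CDT1, the loading factor, by 0.37 (adjusted p = 0.0121). None of these was called under library totals alone, where MCM3 gave 0.08, MCM5 0.03 and CDT1 0.01. CDT1 also failed to pass without siRNA A replicate 1 (0.32, adjusted p = 0.0516).

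MCM2 and MCM6, which sit in the same ring, were lower in siRNA B. MCM2 was at 178, 203 and 214 CPM in control, 153, 173 and 171 CPM in siRNA A and 131, 108 and 127 CPM in siRNA B. The siRNA B libraries lay below every other library. As a log2 fold change this was −0.70 for siRNA B (SE 0.11, adjusted p = 6.52e-04) and −0.25 for siRNA A (SE 0.11, adjusted p = 0.0724), and MCM2 was 0.44 higher in siRNA A than in siRNA B (adjusted p = 0.00866). For siRNA A it passed without control replicate 1 (−0.33, adjusted p = 0.0383) or siRNA B replicate 2 (−0.25, adjusted p = 0.0471). MCM6 was at 169, 174 and 182 CPM in control, 151, 148 and 158 CPM in siRNA A and 127, 107 and 124 CPM in siRNA B, again without overlap between any of the groups. It changed by −0.55 in siRNA B (SE 0.10, adjusted p = 0.00112) and gave −0.20 in siRNA A (SE 0.10, adjusted p = 0.0999). siRNA A against siRNA B gave 0.35 (adjusted p = 0.0129). MCM5 differed between them by 0.37 (adjusted p = 0.0203), and that call was lost without siRNA A replicate 1 (0.35, adjusted p = 0.0608), siRNA A replicate 2 (0.34, adjusted p = 0.0587) or siRNA B replicate 2 (0.28, adjusted p = 0.0610). On library totals alone, these 3 differences between the siRNAs were lost, and both MCM2 (−0.62, adjusted p = 9.72e-04) and MCM6 (−0.57, adjusted p = 0.00110) were lower in siRNA A than in control.

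ORC2, a subunit of the origin recognition complex, was the member of licensing called higher in both siRNA groups on the TMM scale and in neither under library totals alone. It stood at 58.3, 71.4 and 66.8 CPM in control, 77.9, 88.0 and 94.0 CPM in siRNA A and 77.0, 103 and 84.7 CPM in siRNA B. Both siRNA groups lay above control in all libraries. Its log2 fold change was 0.40 for siRNA A (SE 0.13, adjusted p = 0.0209) and 0.42 for siRNA B (SE 0.13, adjusted p = 0.0251). For siRNA A the call was lost without control replicate 1, control replicate 3, siRNA A replicate 2 or siRNA A replicate 3 (0.32 to 0.41, adjusted p = 0.0518 to 0.0845). For siRNA B it was lost without control replicate 1, control replicate 3 or siRNA B replicate 2 (0.30 to 0.42, adjusted p = 0.0712 to 0.102).

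With TMM scaling over all libraries, no other ORC subunit passed against control. In siRNA A and siRNA B in turn, ORC1 gave −0.25 and −0.03, ORC3 gave −0.18 in both, ORC5 gave −0.18 and −0.25, and ORC6 gave −0.02 and −0.06. ORC4 gave 0.27 in siRNA A (adjusted p = 0.0530) and passed with the replicate number as a block (adjusted p = 0.0363), without siRNA A replicate 2 (0.35, adjusted p = 0.0292) and without siRNA B replicate 2 (0.28, adjusted p = 0.0359). ORC5 in siRNA B had an adjusted p of 0.0536 and passed without siRNA A replicate 2 (adjusted p = 0.0470) or siRNA B replicate 2 (−0.29, adjusted p = 0.0478). ORC1 differed between the siRNAs only without siRNA B replicate 2 (−0.35, adjusted p = 0.0365). CDC6, the ATPase that works with CDT1, gave −0.23 in siRNA A (adjusted p = 0.0741) and 0.00 in siRNA B. MCM4 gave −0.15 and −0.10, and MCM7 gave 0.18 and −0.04. Scaled by library totals alone, CDC6 in siRNA A was −0.60 (adjusted p = 0.00117). ORC3 was then −0.54 and −0.39 (adjusted p = 0.00122 and 0.0156), ORC5 −0.55 and −0.46 (adjusted p = 0.00115 and 0.00624), and MCM4 −0.51 and −0.31 (adjusted p = 0.00197 and 0.0489). ORC5 in siRNA B also passed with edgeR, with DESeq2 and with no filter (adjusted p = 0.0334 to 0.0497), and ORC4 in siRNA A with edgeR and DESeq2 (adjusted p = 0.0476 and 0.0171). The span of MCM7 also holds MIR25, MIR93 and MIR106B on the same strand, and reads of MCM7 could be shared with AP4M1 on the other strand.

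Of the 8 members of helicase activation, 5 were lower and none higher in siRNA A, where 27.6% of all genes tested were lower, and 3 were lower and none higher in siRNA B, where 18.3% were. With library totals alone all 8 were lower in siRNA A and 5 in siRNA B, beside 47.0% and 29.7% of all genes tested. The median log2 fold change was −0.44 in siRNA A and −0.55 in siRNA B, where the median of all genes tested was −0.02 and 0.00.

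CDC45 (GRCh37 chr22:19466980-19508135, plus strand) holds the MCM ring and GINS together as the active helicase. It stood at 41.2, 39.2 and 47.1 CPM in control, 17.5, 11.8 and 15.6 CPM in siRNA A and 35.1, 18.2 and 32.8 CPM in siRNA B. The groups did not overlap with each other, and siRNA B replicate 2 was close to the siRNA A libraries. The log2 fold change in siRNA A was −1.46 (SE 0.22, adjusted p = 2.29e-04), a ratio of means of 0.352, and it was kept under all 15 alternatives. In siRNA B it was −0.60 (SE 0.22, adjusted p = 0.0515). That value passed without siRNA A replicate 2 (adjusted p = 0.0431), siRNA B replicate 1 (−0.77, adjusted p = 0.0296) or siRNA B replicate 3 (−0.72, adjusted p = 0.0409), with DESeq2 (−0.56, adjusted p = 0.0398) and under library totals alone (−0.81, adjusted p = 0.0147). siRNA A against siRNA B gave −0.86 (adjusted p = 0.00951).

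GINS2 (GRCh37 chr16:85709804-85723679, minus strand), a subunit of the 4-part GINS complex, was lower in both siRNA groups. It stood at 73.5, 64.2 and 61.0 CPM in control, 36.7, 26.6 and 33.0 CPM in siRNA A and 43.6, 30.9 and 47.2 CPM in siRNA B. All 6 siRNA libraries were below the lowest control library, and the siRNA groups overlapped. Fitted on the log2 scale, this was −1.03 in siRNA A (SE 0.16, adjusted p = 3.31e-04) and −0.71 in siRNA B (SE 0.16, adjusted p = 0.00595). The siRNAs differed by −0.32 (adjusted p = 0.144), and by −0.50 without siRNA B replicate 2 (adjusted p = 0.0175).

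GINS3 showed a difference between the siRNAs in the other direction. It was at 31.9, 33.4 and 28.7 CPM in control, 28.3, 24.8 and 28.7 CPM in siRNA A and 18.9, 11.7 and 19.1 CPM in siRNA B. The siRNA B libraries were the lowest, and replicate 2 was the lowest among them. The log2 fold change was −0.91 in siRNA B (SE 0.17, adjusted p = 0.00152) and −0.20 in siRNA A (SE 0.17, adjusted p = 0.344). Scaled by library totals alone, the siRNA A value was −0.55 and GINS3 was called lower there too (adjusted p = 0.0225). GINS3 was 0.72 higher in siRNA A than in siRNA B (adjusted p = 0.00586).

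The remaining GINS subunits are GINS4 and GINS1. GINS4 changed by −0.55 in siRNA A (SE 0.20, adjusted p = 0.0341) and gave −0.51 in siRNA B (SE 0.20, adjusted p = 0.0637). For siRNA A the test was no longer passed without control replicate 1 (−0.49, adjusted p = 0.0876), control replicate 3 (−0.55, adjusted p = 0.0780) or siRNA A replicate 2 (−0.34, adjusted p = 0.140). The siRNA B value passed without siRNA A replicate 2 (adjusted p = 0.0276) or siRNA B replicate 3 (−0.67, adjusted p = 0.0278). GINS1 changed by −0.32 in siRNA A (SE 0.10, adjusted p = 0.0222), a call lost without control replicate 3, siRNA A replicate 1 or siRNA A replicate 2 (−0.30 to −0.29, adjusted p = 0.0611 to 0.0762), and gave −0.09 in siRNA B.

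CDC7, the kinase that phosphorylates the loaded MCM ring, was lower in both siRNA groups under every alternative tried. It stood at 40.8, 47.2 and 49.5 CPM in control, 27.5, 22.4 and 32.1 CPM in siRNA A and 31.8, 26.5 and 32.4 CPM in siRNA B, without overlap with control. On the log2 scale the difference was −0.73 in siRNA A (SE 0.14, adjusted p = 0.00116) and −0.58 in siRNA B (SE 0.14, adjusted p = 0.00800). DBF4, its activating subunit, gave −0.24 and 0.13 with wide intervals (−0.69 to 0.21 and −0.32 to 0.58). MCM10, a scaffold of the helicase, gave −0.13 and −0.01. Reads of DBF4 could be shared with SLC25A40, and those of GINS1 and GINS2 with NINL and GSE1, which overlap them on the other strand.

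**Figure D3:**
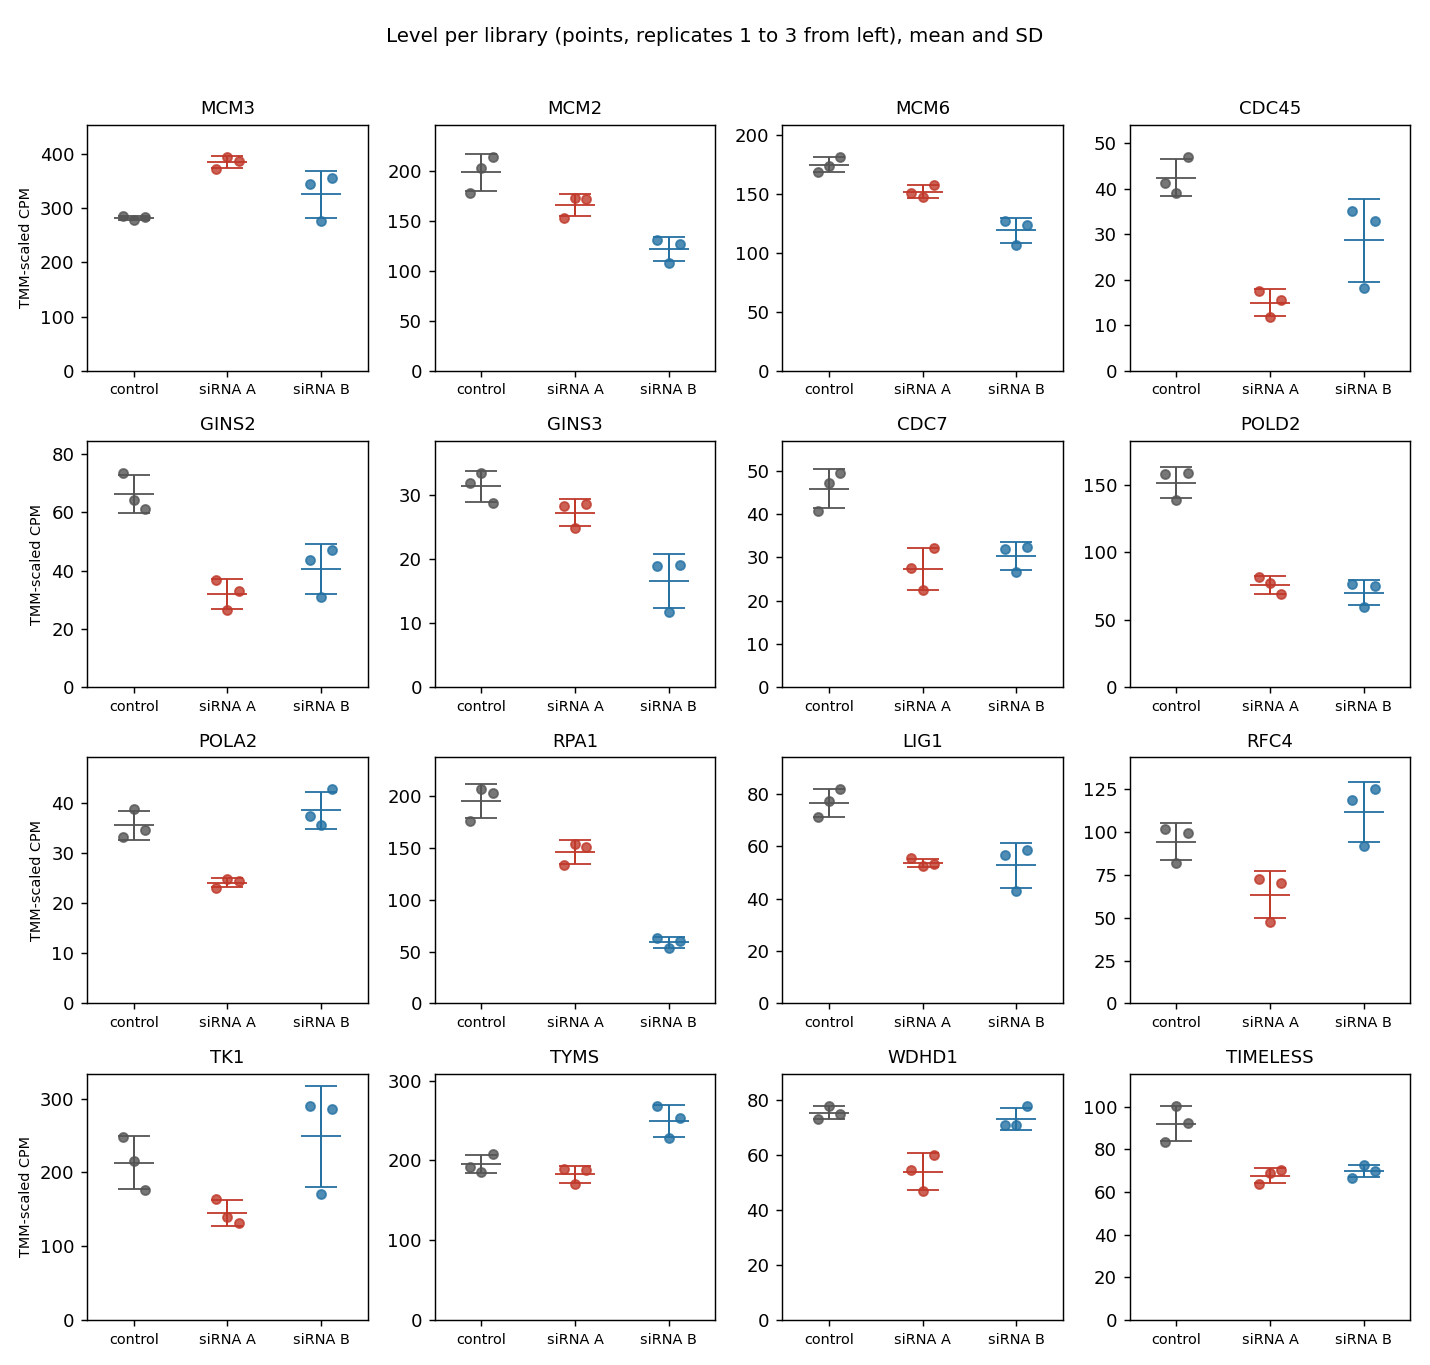
TMM-scaled CPM (y axis, from 0) of 16 members in each library (points), with the mean and SD of the 3 libraries of each group. RPA1 in siRNA B at 53.1 to 63.4 CPM and CDC45 in siRNA A at 11.8 to 17.5 CPM stand below all other libraries. In every gene plotted except TIMELESS, siRNA B replicate 2 lies below siRNA B replicates 1 and 3.

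Among the 9 polymerase members, 1 was higher and 2 were lower in siRNA A, and 3 were higher and 1 was lower in siRNA B. Of all genes tested 23.9% were higher and 27.6% lower in siRNA A, and 15.6% and 18.3% in siRNA B. With library totals alone none of the 9 was higher and 6 were lower in siRNA A (POLA2, PRIM2, POLD1, POLD2, POLE and POLE2). In siRNA B none was then higher and 3 were lower (PRIM2, POLD2 and POLE). With that scaling 47.0% and 29.7% of all genes tested were lower in siRNA A and siRNA B. POLD2 (GRCh37 chr7:44154230-44163957, minus strand), an accessory subunit of polymerase delta, was lower with both siRNAs. It stood at 158, 139 and 159 CPM in control, 81.7, 77.3 and 68.9 CPM in siRNA A and 76.4, 59.2 and 74.8 CPM in siRNA B. All siRNA libraries were below all control libraries by a wide margin. As a log2 fold change this was −0.99 in siRNA A (SE 0.12, adjusted p = 5.91e-05) and −1.11 in siRNA B (SE 0.12, adjusted p = 5.70e-05), kept in both under all 15 alternatives. The siRNAs differed by 0.12 (95% interval −0.14 to 0.38). The catalytic subunit POLD1 gave −0.03 and −0.10, and POLD3 gave −0.09 and 0.26.

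POLA2, the regulatory subunit of polymerase alpha, was lower in siRNA A alone among the comparisons with control, and the difference between the siRNAs passed the test. It was at 33.3, 38.9 and 34.7 CPM in control, 23.1, 24.9 and 24.4 CPM in siRNA A and 37.4, 35.7 and 42.8 CPM in siRNA B. The siRNA A libraries were below all others, and siRNA B overlapped with control. Its log2 fold change was −0.54 in siRNA A (SE 0.11, adjusted p = 0.00144), 0.11 in siRNA B (SE 0.11, adjusted p = 0.454) and −0.65 between them (adjusted p = 7.82e-04). POLA1, the catalytic subunit, was called higher in siRNA A (0.26, adjusted p = 0.0367) and in siRNA B (0.35, adjusted p = 0.0141), but under library totals alone it gave −0.11 and 0.14 and was called in neither. For siRNA A, POLA1 no longer passed without any 1 of control replicates 1 and 3, siRNA A replicates 1, 2 and 3 and siRNA B replicates 1 and 3 (adjusted p = 0.0511 to 0.138). For siRNA B the test was no longer passed without control replicate 1 (0.28, adjusted p = 0.0639) or control replicate 3 (0.33, adjusted p = 0.0516).

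PRIM1, the small primase subunit that makes the RNA primer, was at 48.4, 40.3 and 43.2 CPM in control, 55.2, 41.6 and 53.2 CPM in siRNA A and 55.0, 53.5 and 73.9 CPM in siRNA B. All siRNA B libraries were above control, with replicate 3 well above the other two. Fitted on the log2 scale, this was 0.45 in siRNA B (SE 0.15, adjusted p = 0.0352) and 0.17 in siRNA A. PRIM1 no longer passed under library totals alone (0.24, adjusted p = 0.261), nor without control replicate 2 (0.37, adjusted p = 0.136), control replicate 3 (0.42, adjusted p = 0.106), siRNA B replicate 1 (0.50, adjusted p = 0.0502) or siRNA B replicate 3 (0.30, adjusted p = 0.134). Reads of PRIM1 could be shared with NACA, an abundant gene that overlaps it on the same strand. PRIM2, the large primase subunit, gave −0.05 and −0.26.

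In polymerase epsilon, which extends the leading strand, POLE gave −0.28 in siRNA A (adjusted p = 0.0558) and −0.20 in siRNA B. POLE passed in siRNA A with the replicate block (adjusted p = 0.0330), and without control replicate 1 in siRNA A (−0.39, adjusted p = 0.0112) and in siRNA B (−0.32, adjusted p = 0.0409). POLE2, its accessory subunit, gave 0.00 in siRNA A, or −0.35 under library totals alone (adjusted p = 0.0321). In siRNA B it was higher by 0.36 (adjusted p = 0.0280). That call was lost under library totals alone (0.15, adjusted p = 0.391) and without any 1 of the 3 control libraries, siRNA B replicate 1 or siRNA B replicate 3 (adjusted p = 0.0556 to 0.0937). POLE2 was lower in siRNA A than in siRNA B by 0.35 (adjusted p = 0.0269), a call lost without siRNA A replicate 2 (−0.25, adjusted p = 0.0966), siRNA B replicate 1 (−0.37, adjusted p = 0.0606) or siRNA B replicate 3 (−0.32, adjusted p = 0.0905).

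Among the 11 members of the clamp, the clamp loader, RPA and lagging strand maturation, 3 were higher and 4 lower in siRNA A. In siRNA B 2 were higher and 2 lower. Of all genes tested 23.9% were higher and 27.6% lower in siRNA A, and 15.6% and 18.3% in siRNA B. Scaled by library totals alone, none of the 11 was higher and 6 were lower in siRNA A (PCNA, RFC2, RFC4, RPA1, FEN1 and LIG1). In siRNA B none was then higher and 3 were lower (RPA1, FEN1 and LIG1). With that scaling 47.0% and 29.7% of all genes tested were lower in siRNA A and siRNA B. RPA1 (GRCh37 chr17:1732996-1803376, plus strand), the large subunit of the complex that coats single-stranded DNA, had the largest change of any member. It stood at 176, 206 and 202 CPM in control, 133, 154 and 151 CPM in siRNA A and 63.4, 53.1 and 60.1 CPM in siRNA B. The groups lay in 3 separate bands, with siRNA B lowest. The log2 fold change was −1.71 in siRNA B (SE 0.11, adjusted p = 1.67e-06), a ratio of means of 0.303, and −0.41 in siRNA A (SE 0.11, adjusted p = 0.00722). RPA1 was 1.29 higher in siRNA A than in siRNA B (SE 0.11, adjusted p = 1.49e-05). Reads of RPA1 could be shared with SMYD4 on the other strand.

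Neither partner subunit of RPA1 was called lower. RPA2 was called higher in siRNA A (0.28, adjusted p = 0.0246) and in siRNA B (0.44, adjusted p = 0.00402) on the TMM scale, but under library totals alone it gave −0.08 and 0.23 and was called in neither. For siRNA A, RPA2 no longer passed without control replicate 2, control replicate 3, siRNA A replicate 1 or siRNA A replicate 3 (0.25 to 0.29, adjusted p = 0.0502 to 0.0824). RPA3, the smallest subunit, gave 0.12 and 0.18 with intervals of −0.20 to 0.43 and −0.13 to 0.50.

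The clamp loader, made of RFC1 to RFC5, opens the PCNA ring and closes it on DNA. RFC4 stood at 101, 81.8 and 99.2 CPM in control, 72.6, 47.6 and 70.1 CPM in siRNA A and 119, 91.5 and 125 CPM in siRNA B. The siRNA A libraries were below all others and siRNA B overlapped with control, with replicate 2 the lowest in every group. On the log2 scale the difference was −0.58 in siRNA A (SE 0.17, adjusted p = 0.0134), 0.24 in siRNA B (SE 0.17, adjusted p = 0.308) and −0.82 between them (adjusted p = 0.00321). For siRNA A, RFC4 no longer passed without siRNA A replicate 2 (−0.39, adjusted p = 0.0512). Reads of RFC4 could be shared with EIF4A2 on the other strand.

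RFC2 was lower by 0.32 in siRNA A (adjusted p = 0.0338), a call lost without any 1 of the 6 control and siRNA A libraries (adjusted p = 0.0560 to 0.0958), and it gave 0.02 in siRNA B. Between the siRNAs RFC2 differed by −0.35 (adjusted p = 0.0336), which was lost without control replicate 3, siRNA A replicates 1, 2 or 3, or siRNA B replicates 1 or 3 (adjusted p = 0.0520 to 0.132). RFC5 was higher in siRNA A (0.35, adjusted p = 0.0101) and in siRNA B (0.52, adjusted p = 0.00175), but with library totals alone it gave −0.02 and 0.31 (adjusted p = 0.907 and 0.0596). Without control replicate 3 the siRNA A value of RFC5 was 0.29 (adjusted p = 0.0526). RFC3 was higher in siRNA A by 0.36 (adjusted p = 0.0124), but −0.0026 under library totals alone (adjusted p = 0.988), and it missed the threshold without control replicate 3 (0.31, adjusted p = 0.0594) or siRNA A replicate 3 (0.29, adjusted p = 0.0522). RFC3 was also higher in siRNA A than in siRNA B by 0.40 (adjusted p = 0.0103), or 0.25 under library totals alone (adjusted p = 0.153).

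PCNA, the sliding clamp, stood at 246, 226 and 281 CPM in control, 243, 210 and 240 CPM in siRNA A and 306, 284 and 323 CPM in siRNA B, so siRNA B was above the other groups in all libraries. As a log2 fold change this was 0.28 in siRNA B (adjusted p = 0.0686, or 0.0366 with DESeq2) and −0.12 in siRNA A (adjusted p = 0.396). With library totals alone it was 0.07 in siRNA B, and PCNA was lower in siRNA A (−0.48, adjusted p = 0.00382). The siRNAs differed by −0.40 (adjusted p = 0.0147). That difference was lost without siRNA A replicate 2 (−0.33, adjusted p = 0.0540) or siRNA B replicate 3 (−0.35, adjusted p = 0.0548).

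LIG1, the ligase that joins Okazaki fragments, was lower with both siRNAs. It was at 71.0, 77.0 and 81.6 CPM in control, 55.4, 52.4 and 53.0 CPM in siRNA A and 56.5, 42.7 and 58.5 CPM in siRNA B, below control in all 6 libraries. Its log2 fold change was −0.50 in siRNA A (SE 0.12, adjusted p = 0.00487) and −0.54 in siRNA B (SE 0.12, adjusted p = 0.00536), kept under all 15 alternatives. FEN1, the flap nuclease that acts before LIG1, gave −0.06 in siRNA A and −0.35 in siRNA B (adjusted p = 0.0609). In siRNA B FEN1 passed with DESeq2 (−0.34, adjusted p = 0.0477) and without control replicate 2 (−0.46, adjusted p = 0.0350) or siRNA B replicate 3 (−0.43, adjusted p = 0.0478). Reads of FEN1 could be shared with FADS2.

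All 4 members of nucleotide supply were lower in siRNA A than in siRNA B, and none overlapped between those groups. Of all genes tested 19.5% were lower in that comparison, and 25.0% were lower without overlap. Against control 1 of the 4 was lower in siRNA A and 1 higher in siRNA B. Of all genes tested 27.6% were lower in siRNA A and 15.6% higher in siRNA B. Under library totals alone all 4 were lower in siRNA A, beside 47.0% of all genes, and none was called in siRNA B. Summed over the 4, the level was 1095, 1089 and 1125 CPM in control, 952, 879 and 956 CPM in siRNA A and 1344, 1097 and 1325 CPM in siRNA B. The siRNA A libraries were below control, and siRNA B replicate 2 was within the range of control while the other siRNA B libraries were above it.

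TK1, the thymidine salvage kinase, stood at 248, 215 and 177 CPM in control, 164, 139 and 131 CPM in siRNA A and 290.2, 170.2 and 286 CPM in siRNA B. The siRNA A libraries were the lowest, and siRNA B spanned the range of control. Fitted on the log2 scale, this was −0.55 in siRNA A (SE 0.20, adjusted p = 0.0345), a call lost without control replicate 1 (−0.43, adjusted p = 0.107), control replicate 2 (−0.55, adjusted p = 0.0751), siRNA A replicate 2 (−0.52, adjusted p = 0.0835) or siRNA A replicate 3 (−0.48, adjusted p = 0.111). In siRNA B it was 0.19 (adjusted p = 0.476), and 0.45 without siRNA B replicate 2 (adjusted p = 0.0371). The difference of −0.74 between the siRNAs (adjusted p = 0.0116) was lost without siRNA B replicate 1 (−0.61, adjusted p = 0.0534).

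TYMS, thymidylate synthase, stood at 192, 186 and 208 CPM in control, 189.8, 171 and 188 CPM in siRNA A and 268, 229 and 253 CPM in siRNA B, so siRNA B was above all other libraries. The log2 fold change was 0.35 in siRNA B (SE 0.10, adjusted p = 0.0164), but 0.14 under library totals alone (adjusted p = 0.370), and −0.09 in siRNA A (adjusted p = 0.455), but −0.46 there under library totals alone, where TYMS was called lower (adjusted p = 0.00465). For siRNA B, TYMS no longer passed without control replicate 2 (0.30, adjusted p = 0.0701) or siRNA B replicate 1 (0.30, adjusted p = 0.0773). Between the siRNAs TYMS differed by −0.45 (adjusted p = 0.00457), kept under all 15 alternatives. Reads of TYMS could be shared with TYMSOS and ENOSF1 on the other strand.

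RRM2 and RRM1, the small and large subunits of ribonucleotide reductase, gave −0.22 and −0.19 in siRNA A and 0.15 and 0.05 in siRNA B against control, none of which passed with TMM scaling. Scaled by library totals alone, RRM2 (−0.59, adjusted p = 0.00162) and RRM1 (−0.56, adjusted p = 5.01e-04) were lower in siRNA A. Between the siRNAs RRM2 differed by −0.37 (adjusted p = 0.0217), a call lost without siRNA A replicate 1, siRNA A replicate 2, siRNA B replicate 1 or siRNA B replicate 3 (adjusted p = 0.0521 to 0.0800). RRM1 differed by −0.24 (adjusted p = 0.0476), a call lost in every fit without 1 library except that without siRNA B replicate 2 (adjusted p = 0.0530 to 0.147).

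Of the 4 members that protect the moving fork, 2 were lower in siRNA A, and 1 of those was lower in siRNA B too. Of all genes tested 27.6% were lower in siRNA A and 18.3% in siRNA B. With library totals alone CLSPN was lower in siRNA A as well (−0.76, adjusted p = 0.00329), as were 47.0% of all genes tested. TIMELESS, which ties the helicase to the polymerases, stood at 83.5, 100.4 and 92.3 CPM in control, 63.8, 68.9 and 70.2 CPM in siRNA A and 66.7, 72.7 and 69.9 CPM in siRNA B. All siRNA libraries were below control. On the log2 scale the difference was −0.44 in siRNA A (SE 0.10, adjusted p = 0.00311) and −0.39 in siRNA B (SE 0.10, adjusted p = 0.00961), and both were kept under all 15 alternatives. Its partner TIPIN gave 0.23 (adjusted p = 0.0705) and 0.25 (adjusted p = 0.0666), but −0.13 and 0.05 under library totals alone. Without siRNA B replicate 2 TIPIN passed on the TMM scale in both (0.23 and 0.32, adjusted p = 0.0450 and 0.0291).

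WDHD1, which links polymerase alpha to the helicase, was at 73.3, 78.0 and 75.1 CPM in control, 54.7, 46.9 and 60.3 CPM in siRNA A and 71.2, 70.9 and 77.9 CPM in siRNA B. The siRNA A libraries were below all others, and siRNA B overlapped with control. As a log2 fold change this was −0.48 in siRNA A (SE 0.11, adjusted p = 0.00271), −0.04 in siRNA B (adjusted p = 0.790) and −0.44 between them (adjusted p = 0.00728). CLSPN, the adaptor that carries the stalled-fork signal, gave −0.40 in siRNA A (adjusted p = 0.0841) and 0.05 in siRNA B. With the replicate number as a block the siRNA A value of CLSPN had an adjusted p of 0.00451, and without control replicate 2 it was −0.57 (adjusted p = 0.0237). CLSPN differed between the siRNAs without siRNA B replicate 2 (−0.56, adjusted p = 0.0382).

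Summed over all 50 members, the level was 6125 ± 154 CPM in control, 5799 ± 269 CPM in siRNA A and 5981 ± 583 CPM in siRNA B (SD, n = 3 each), so the groups overlapped. Replicate 2 had the lowest sum in each group, 5969.9 CPM in control, 5489 CPM in siRNA A and 5333 CPM in siRNA B, and the siRNA A and siRNA B libraries of that number were also the shallowest at 15566530 and 16340856 reads. The part of depth in these sums was not tested.

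Subunits of one complex need not be made in equal amounts, so levels were compared per kb of the annotated canonical transcript, within control first. In the MCM2-7 ring MCM7 was highest at 182 ± 13.4 CPM per kb, followed by MCM4 at 95.7 ± 10.4, MCM3 at 92.1 ± 1.36, MCM5 at 58.5 ± 4.52, MCM2 at 57.8 ± 5.36 and MCM6 at 46.6 ± 1.71 (SD, n = 3). In that order MCM4 and MCM3 overlapped in their libraries, as did MCM5 and MCM2, and the other neighbours did not. In siRNA A MCM3 was at 126 ± 3.64 and MCM5 at 76.9 ± 4.69 CPM per kb, and in siRNA B MCM2 was at 35.5 ± 3.55 and MCM6 at 31.8 ± 2.84. In polymerase delta POLD2 stood at 94.4 ± 7.14 CPM per kb, above POLD1 at 13.7 ± 1.19 and POLD3 at 8.82 ± 1.54. In the siRNA groups POLD2 was still the highest of the 3, at 47.2 ± 4.03 and 43.6 ± 5.92 CPM per kb.

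In RPA the order of the subunits differed between groups. RPA1 and RPA2 overlapped in control at 40.2 ± 3.36 and 37.6 ± 0.514 CPM per kb, with RPA3 at 9.63 ± 1.33. In siRNA A RPA1 was at 30.1 ± 2.34 and RPA2 at 46.0 ± 1.86, and in siRNA B RPA1 was at 12.1 ± 1.08 and RPA2 at 51.3 ± 4.21, so that RPA1 came close to RPA3 at 11.03 ± 1.91. GINS2 was the highest GINS subunit in control at 25.2 ± 2.47 CPM per kb, above GINS1 at 18.2 ± 0.868, whereas in siRNA A it stood at 12.2 ± 1.94 beside GINS1 at 14.5 ± 0.818. Of ribonucleotide reductase, RRM2 stood at 150.1 ± 12.3 and RRM1 at 65.5 ± 1.22 CPM per kb in control. In ORC the order in control was ORC6, ORC5, ORC3, ORC1, ORC2 and ORC4, from 27.004 ± 2.32 to 5.47 ± 0.353 CPM per kb, and only ORC6 and ORC5 overlapped among neighbours. These levels depend on 1 transcript length per gene and on how reads of overlapping genes were assigned.

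**Figure D4:**
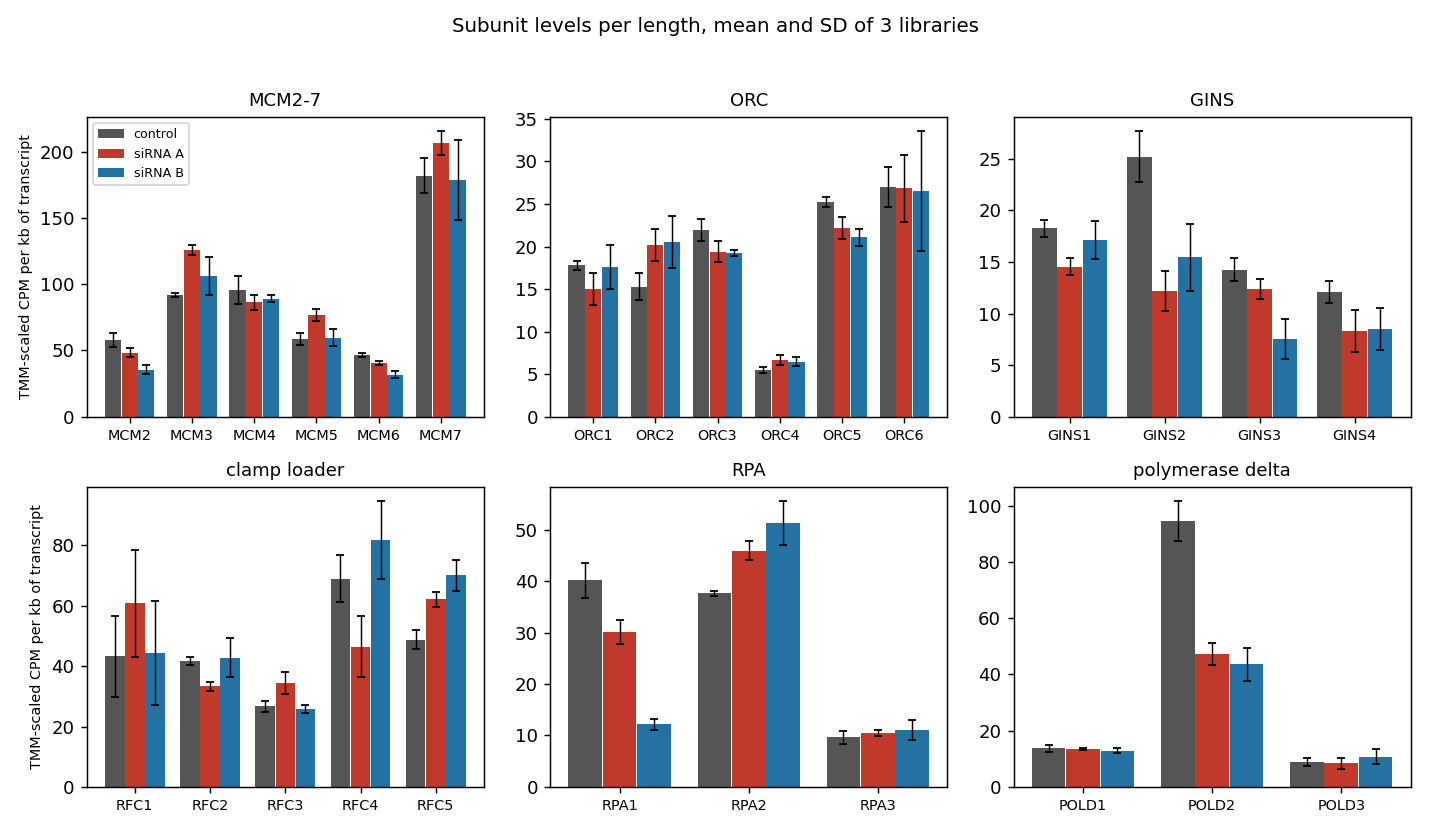
TMM-scaled CPM per kb of canonical transcript (y axis, from 0) for the subunits of 6 complexes, bars for the mean and lines for the SD of 3 libraries in control, siRNA A and siRNA B. RPA1 is level with RPA2 in control at 40.2 against 37.6 and far below it in siRNA B at 12.1 against 51.3.

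Replicates of most members lay close together. The median within-group SD on the log2 scale was 0.124 over the members and 0.172 over all genes tested. RFC1, the largest clamp loader subunit, had the widest spread: its SD of 0.470 was above that of 98.6% of genes tested. It stood at 286, 169 and 177 CPM in control, 356, 197 and 335 CPM in siRNA A and 164, 171 and 312 CPM in siRNA B. Control replicate 1, siRNA A replicates 1 and 3 and siRNA B replicate 3 were high and the other 5 libraries low, across the groups. RFC1 gave 0.48 in siRNA A (95% interval −0.14 to 1.11) and 0.01 in siRNA B (−0.62 to 0.63). It passed in siRNA A without siRNA A replicate 2 (0.75, adjusted p = 0.0483), and between the siRNAs without siRNA B replicate 3 (0.77, adjusted p = 0.0423). CDC45 (SD 0.339), DBF4 (0.321), POLD3 (0.315) and TK1 (0.305) followed, with SDs above those of 90.2% to 93.7% of genes tested.

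**Figure D5:**
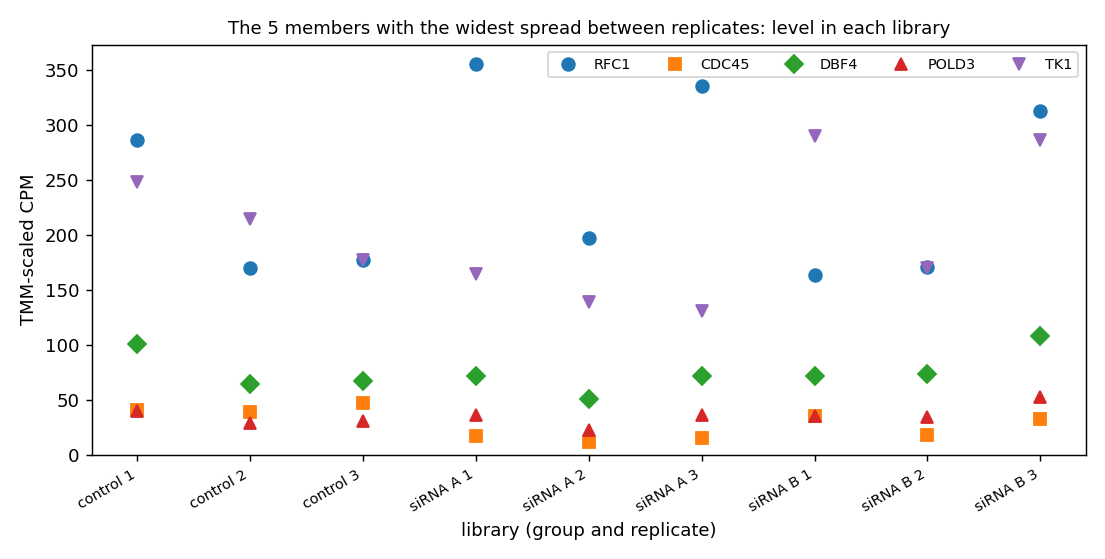
TMM-scaled CPM (y axis, from 0) of the 5 members with the widest spread between replicates in each of the 9 libraries (x axis). RFC1 lies between 286 and 356 CPM in 4 libraries and between 164 and 197 CPM in the other 5.

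Promoter sequence was examined because replication genes are known E2F targets and the members with letters of E2F-type sites can be shown. RefSeq windows on GRCh38.p14, from 250 bases before to 50 after a gene's start, were matched by symbol for 44 of the 50 members. MCM4, MCM5, GINS4, POLD3, RPA2 and RPA3 had no entry. The letters TTTCCCGC, TTTCGCGC, TTTGCCGC or TTTGGCGC were found, on either strand, in at least 1 window of 21 of the 44 (47.7%), against 3.99% of 27305 genes. Per window the shares were 37.5% of 56 and 3.31% of 35116. Letters of a cell cycle homology region (TTTGAA or TTCGAA, either strand) were in 3 of the 44 (6.82%) and in 19.5% of all genes. For 8 members described above, 1 match each is shown as 30 bases on the strand of the gene, with the matched letters in capitals. These 8 are examples and not a balanced sample of the 21. Matches were also found, and are not shown, in CDT1, POLA1, POLE2, RFC3 and TYMS, called higher in siRNA A, siRNA B or both with TMM. The match in GINS1, called lower in siRNA A, is not shown either. CDC7 and MCM3 held a further match apart from the one shown, MCM2 one that overlaps it, and MCM6 both kinds.
GINS2 (chr16:85688967-85688996, minus strand): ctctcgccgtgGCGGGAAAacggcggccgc
GINS3 (chr16:58392455-58392484, plus strand): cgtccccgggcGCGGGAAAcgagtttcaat
CDC7 (chr1:91501033-91501062, plus strand): gtgcagttcctTTTCCCGCcccccttcgga
POLA2 (chr11:65261898-65261927, plus strand): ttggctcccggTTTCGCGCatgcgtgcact
LIG1 (chr19:48170440-48170469, minus strand): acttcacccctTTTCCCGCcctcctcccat
MCM2 (chr3:127598402-127598431, plus strand): cgtgaaccactTTTCGCGCgaaacctggtt
MCM3 (chr6:52284728-52284757, minus strand): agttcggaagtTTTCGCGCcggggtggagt
MCM6 (chr2:135876515-135876544, minus strand): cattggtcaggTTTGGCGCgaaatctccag

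Members with such letters were found among those higher, lower and not called. Of the 21 with them, 4 were higher and 5 lower in siRNA A, and 3 were higher and 6 lower in siRNA B. Of the 23 without them, 2 were higher and 8 lower in siRNA A, and 3 were higher and 3 lower in siRNA B. Of all genes tested 23.9% were higher and 27.6% lower in siRNA A, and 15.6% and 18.3% in siRNA B. In these windows MCM3, called higher in siRNA A with TMM but not with library totals alone, held letters of the same kind as GINS2 and POLA2, which were lower, and POLD2, RPA1 and CDC45 held none. A match of letters is a description of the sequence and not a site that was measured.

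Other genes of the pathway were taken from 5 lists, of which 82 of 83 genes were tested. UHRF1 had no row under the gene identifier searched, and whether it stands under another identifier was not tested. Together 16 were higher and 26 lower in siRNA A, 14 higher and 18 lower in siRNA B, and 19 higher and 22 lower in siRNA A against siRNA B. As shares called these were 51.2%, 39.0% and 50.0%, beside 51.4%, 34.0% and 37.1% of all genes tested. The 18 G1/S regulators, which govern entry into S phase, had 10 lower and 2 higher in siRNA A, where 27.6% and 23.9% of all genes tested were lower and higher, and 6 lower and 2 higher in siRNA B, where 18.3% and 15.6% were. MYBL2, a transcription factor of cycling cells, stood at 193, 195 and 208 CPM in control, 49.1, 45.7 and 46.0 CPM in siRNA A and 98.0, 65.4 and 91.6 CPM in siRNA B. The groups lay apart, with siRNA A lowest. It changed by −2.06 in siRNA A (adjusted p = 1.96e-06) and by −1.24 in siRNA B (adjusted p = 6.07e-05).

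E2F1, the activator of replication genes, was at 31.9, 29.8 and 32.0 CPM in control, 10.8, 7.63 and 9.06 CPM in siRNA A and 16.7, 10.3 and 16.2 CPM in siRNA B, below control in all 6. It changed by −1.67 (adjusted p = 2.39e-05) and −1.09 (adjusted p = 7.20e-04). Of all genes tested 23.9% were higher and 27.6% lower in siRNA A, and 15.6% and 18.3% in siRNA B. The 23 other replisome factors had 2 higher and 7 lower in siRNA A and 3 higher and 3 lower in siRNA B. Among them MCM8, a helicase of recombination, changed by −0.84 in siRNA A (adjusted p = 3.41e-04), and MCMBP, which binds MCM proteins, by 0.70 (adjusted p = 1.48e-04), or 0.33 under library totals alone (adjusted p = 0.0258). MCMBP was called higher in siRNA B too. That call was lost under library totals alone (0.07, adjusted p = 0.662) and in several fits without 1 library. POLD4, a further subunit of polymerase delta, changed by 0.90 in siRNA B (adjusted p = 8.24e-04) at a level of 2.10 ± 0.349 CPM in control and 4.79 ± 0.349 CPM in siRNA B. Reads of POLD4 could be shared with RAD9A on the other strand.

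The 9 checkpoint genes had 3 higher and 2 lower in siRNA A and 2 higher and 1 lower in siRNA B. For this list and the next, 23.9% of all genes tested were higher and 27.6% lower in siRNA A. In siRNA B these shares were 15.6% and 18.3%. RAD9A, a part of the checkpoint clamp, changed by −1.63 and −1.38 (adjusted p = 1.19e-05 and 6.77e-05), and WEE1, the kinase that holds CDK1 back, by 1.17 and 0.84 (adjusted p = 1.83e-05 and 3.19e-04), both called also under library totals alone. Reads of RAD9A could be shared with POLD4, CLCF1 and PPP1CA on the other strand. The 8 genes of chromatin assembly and maintenance methylation had 1 higher and 4 lower in siRNA A and 1 higher and 3 lower in siRNA B. CHAF1A, which places histones behind the fork, was at 122, 113 and 132 CPM in control, 37.7, 33.7 and 42.7 CPM in siRNA A and 73.8, 50.4 and 82.2 CPM in siRNA B, in 3 separate bands. It changed by −1.67 (adjusted p = 1.53e-05) and −0.85 (adjusted p = 0.00210). The histone chaperone ASF1B changed by −1.51 in siRNA A (adjusted p = 8.23e-06). It was called lower in siRNA B too, at −0.82 under library totals alone (adjusted p = 0.00133). ASF1A, the paralog of ASF1B, changed by 0.63 in siRNA B (adjusted p = 0.0192), which did not pass under library totals alone (0.42, adjusted p = 0.117), nor without control replicate 2, control replicate 3, siRNA B replicate 1 or siRNA B replicate 3 (adjusted p = 0.0577 to 0.0850).

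The 24 other genes of nucleotide synthesis had 8 higher and 3 lower in siRNA A and 6 higher and 5 lower in siRNA B. Beside these counts, 23.9% of all genes tested were higher and 27.6% lower in siRNA A. In siRNA B 15.6% of all genes tested were higher and 18.3% lower. PPAT, which starts purine synthesis, changed by 1.06 in siRNA A (adjusted p = 3.89e-05), and NME1, a nucleoside diphosphate kinase, by 0.69 (adjusted p = 0.00283). PPAT gave 0.69 under library totals alone (adjusted p = 5.08e-04) and NME1 0.32 (adjusted p = 0.0784). PPAT was called higher in siRNA B too. That call was lost under library totals alone (0.21, adjusted p = 0.222) and in several fits without 1 library. Reads of NME1 could be shared with NME1-NME2, which overlaps it on the same strand. SAMHD1, which degrades deoxynucleotides, stood at 25.1, 37.2 and 28.4 CPM in control, 21.96, 30.8 and 26.5 CPM in siRNA A and 9.35, 10.8 and 8.72 CPM in siRNA B. The siRNA B libraries were far below all others. It changed by −1.54 in siRNA B (adjusted p = 4.96e-05) and gave −0.18 in siRNA A (adjusted p = 0.368), with a difference of 1.36 between the siRNAs (adjusted p = 1.11e-04). Scaled by library totals alone, SAMHD1 was called lower in siRNA A as well (−0.54, adjusted p = 0.0148). SHMT1, an enzyme of the folate cycle that serves TYMS, changed by −0.83 in siRNA B (adjusted p = 6.07e-05) and by −0.51 in siRNA A (adjusted p = 6.87e-04).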

How the data were processed

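HCT116 RNA, selected with oligo-dT, was read as single ends of 50 bases, in 9 libraries grouped by their titles. The authors deposited 1 table of CPM values per gene, reads divided by the library total with no further scaling; the submitters' processing notes name TopHat2, HTSeq and the build GRCh37 (hg19), and the use of strand was not given in the sources used here, so reads of overlapping genes on either strand may have been shared. All values (100% within 0.01) were whole multiples of 1 read, from which totals of 15566530 to 23277549 reads were recovered. Depth limits low values, but no member had under 156 reads.

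CPM were divided by TMM factors (edgeR 4.0.16), and log2(CPM + 1) was fitted with limma 3.58.1 (R 4.3.3, trend on the mean) over all 9 libraries and the 13893 genes that reached 1 CPM in 3 or more libraries, with Benjamini-Hochberg adjustment over all of them. Symbols came from GENCODE on GRCh37 (14871 of 15354 rows matched, 483 did not), as did transcript lengths. Promoters came from RefSeq on GRCh38.p14. The procedure was tested on simulated data. Values per library are given for up to 2 called members per step and siRNA with the largest change, for the 5 largest differences between siRNAs, and, chosen after their values were seen, for CDC7, PCNA and RFC1. From each other list up to 2 called genes per siRNA are named. The members and all lists were chosen with earlier results of these data known.

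Replicates of a group differed beyond sampling noise (chi-square at least 13.0 per degree of freedom) and were kept apart. Deviations of same-numbered control and siRNA A libraries correlated by 0.65, 0.41 and 0.13, and those of different numbers by −0.54 to 0.09. Control replicate 1 also correlated with siRNA B replicate 3 by 0.68, and the labels name no shared culture, so a pairing by number was not established. Same-numbered libraries gave 0.17, 0.44 and −0.39 for control and siRNA B, and 0.20, 0.44 and 0.02 for siRNA A and siRNA B. The main fit holds no pairing, and the replicate block is an alternative to it. The 15 alternatives were library totals alone, a pseudocount of 0.1, no filter, edgeR's quasi-likelihood test and DESeq2 1.42.0 on recovered reads, the replicate block, and 9 fits without 1 library each. Plots used Python 3.11.15 with matplotlib 3.10.9.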

Additional observations from a re-analysis of the deposited data

Results flagged for a closer look

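TOP2A, the topoisomerase that untangles replicated DNA and 1 of the 23 other replisome factors, changed in opposite directions with the siRNAs. It stood at 457, 344 and 371 CPM in control, 288, 216 and 300.3 CPM under the label siRNA A and 536, 481 and 651 CPM under the label siRNA B. No group overlapped with another. The log2 fold change was −0.55 in siRNA A (limma, adjusted p = 0.0132) and 0.51 in siRNA B (limma, adjusted p = 0.0281). siRNA A against siRNA B gave −1.05 (SE 0.16, limma, adjusted p = 4.67e-04). Under library totals alone the siRNA B value was 0.29 (adjusted p = 0.193). For siRNA A the test was no longer passed without control replicate 1 (−0.43, adjusted p = 0.0514) or siRNA A replicate 2 (−0.40, adjusted p = 0.0560). For siRNA B it was no longer passed without control replicate 2, control replicate 3, siRNA B replicate 1 or siRNA B replicate 3 (0.39 to 0.52, adjusted p = 0.0649 to 0.124).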

How the results depend on the processing

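The scaling between libraries was the choice that moved the most calls. With library totals alone, the members higher and lower against control were 0 and 34 for siRNA A (8 and 14 with TMM) and 0 and 17 for siRNA B (7 and 9), and 2 were higher for siRNA A against siRNA B (6). Over all genes these counts were 1257 higher and 6532 lower for siRNA A, 958 and 4127 for siRNA B, and 1415 higher for siRNA A against siRNA B. The direction turned for POLA1 (−0.11), POLE2 (−0.35), RFC3 (−0.0026), RFC5 (−0.019) and RPA2 (−0.080), all for siRNA A against control. Without 1 library each, members higher ranged from 3 to 10 and lower from 9 to 15 for siRNA A, from 3 to 9 and 9 to 12 for siRNA B, and from 5 to 7 and 6 to 14 for siRNA A against siRNA B. All genes higher ranged from 2713 to 3596 and lower from 3218 to 4075 for siRNA A, from 1395 to 2293 and 2004 to 2640 for siRNA B, and from 1964 to 2520 and 2032 to 2644 for siRNA A against siRNA B. The lowest count of genes higher for siRNA B came without control replicate 2. Calls kept under all 15 alternatives numbered 9 of 14 lower and 0 of 8 higher for siRNA A, 9 of 9 lower and 0 of 7 higher for siRNA B, and 5 of 11 lower and 2 of 6 higher for siRNA A against siRNA B. With the replicate block, 25 members were called for siRNA A against control in place of 22, with none lost and ORC4, POLE and CLSPN gained, and the block changed no other call of a member there. In the other comparisons the block gave 8 higher and 12 lower for siRNA B and 7 higher and 13 lower for siRNA A against siRNA B. Calls over all genes rose with the block too. They were 3820 higher and 4273 lower for siRNA A, in place of 3314 and 3831. For siRNA B they were 2766 and 3025, in place of 2172 and 2547. For siRNA A against siRNA B they were 2985 and 3244, in place of 2452 and 2703. Counts over all members and over all genes with the other pseudocount, without the filter and with the count tests were within 1.5 times those given. Of the counts by step, 4 rose beyond that with DESeq2, and none left that range with the other pseudocount, without the filter or with edgeR. Depth limits no member's call to a few reads, and 3 libraries per group limit the precision of all.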
